A study of Mus musculus with 6 samples.

Results

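The 10 genes described here belong to the integrated stress response that runs through the transcription factor ATF4. They are Atf4, Ddit3, Ddit4, Trib3, Asns, Chac1, Atf5, Ppp1r15a, Vldlr and Cth, taken by symbol from a table of 16982 genes, and all 10 passed the filter on low counts that left 13386 genes for testing. RNA was sequenced from 3 wild type (WT) and 3 Rnf20-/- (knockout) cultures of reprogrammable cells with a C57BL/6 background, harvested at day 3 of reprogramming. According to the methods of the study, both genotypes were mouse embryonic fibroblasts (MEF) given OCT4, SOX2, KLF4 and C-MYC (together OSKM) by retrovirus, and the knockout came from Rnf20 Flox/Flox; Tamoxifen-cre cells, whose Cre is expressed ubiquitously and is induced by 4-OH tamoxifen. The labels list every culture as untreated, and whether the WT cells carried the Cre or received the drug is not given in the sources used here. The infected cells were replated on MEF feeder layers, and the sources do not say whether feeder RNA was in the harvest. Nothing in the labels ties the replicates to separate embryos, so p-values measure only the spread between these samples.

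The integrated stress response begins when a kinase of the translation factor eIF2 senses amino acid shortage, unfolded protein in the endoplasmic reticulum (ER), double-stranded RNA or haem shortage. Phosphorylated eIF2 lowers general protein synthesis, while the Atf4 mRNA, through its upstream open reading frames, is translated more, so ATF4 activity can change without a change of Atf4 mRNA. ATF4 then binds composite elements in its target genes, which act in amino acid synthesis, in glutathione breakdown, in feedback on eIF2 and, through CHOP (the product of Ddit3), in cell death. RNF20, together with RNF40, is the ligase that places ubiquitin on histone H2B in transcribed genes.

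The sequences that these factors read are shown first, because the members are grouped as targets of ATF4. RefSeq promoter windows on GRCm38.p6 were matched by symbol for 9 of the 10 members (Cth had none), in 11 windows, and the 250 bases before each start were searched on both strands. The letters TGATGNAA, the core of the composite element of ATF4 and C/EBP factors, stood in 3 of the 11 windows and in 3.45% of all 32851 windows of that length. The 3 matches are given below in 30 bases each, with the matched bases in capitals and the gene's own strand read 5′ to 3′. They lie at chr6:7693214-7693243 for Asns, chr2:119351038-119351067 for Chac1 and chr19:27216809-27216838 for Vldlr. The Asns match lies 23 to 16 bases before the RefSeq start but inside the gene as GENCODE M21 annotates it, after its first start, and the Vldlr match is in the window of a second start inside the gene. In Chac1 and Vldlr the element is on the opposite strand.
Asns: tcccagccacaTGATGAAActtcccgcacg
Chac1: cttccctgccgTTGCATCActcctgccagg
Vldlr: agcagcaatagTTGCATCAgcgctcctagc

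The promoters of Ddit3 (chr10:127290543-127290773, plus strand) and Ppp1r15a (chr7:45526269-45526518, minus strand) are shown because these members had the largest fold changes, with no base after the first annotated start. The AP-1 letters TGACTCA, in capitals, stood in the Ddit3 window from 242 to 236 bases before the RefSeq start and in 4.46% of all windows. The CRE letters TGACGTCA, in capitals, stood in the Ppp1r15a window from 12 to 5 bases before the start and in 1.55% of all windows. The ER stress element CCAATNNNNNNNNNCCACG was found in 0 of the 11 member windows and in 0.113% of all windows. These 3 further motifs were chosen after the windows had been read, no match of 1 motif overlapped that of another in the member windows, and a match is a description of letters only.
Ddit3: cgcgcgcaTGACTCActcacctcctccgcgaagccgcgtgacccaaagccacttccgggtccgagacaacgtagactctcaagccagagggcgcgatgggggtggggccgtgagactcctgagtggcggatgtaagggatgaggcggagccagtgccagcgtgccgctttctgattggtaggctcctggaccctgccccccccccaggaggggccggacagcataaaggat
Ppp1r15a: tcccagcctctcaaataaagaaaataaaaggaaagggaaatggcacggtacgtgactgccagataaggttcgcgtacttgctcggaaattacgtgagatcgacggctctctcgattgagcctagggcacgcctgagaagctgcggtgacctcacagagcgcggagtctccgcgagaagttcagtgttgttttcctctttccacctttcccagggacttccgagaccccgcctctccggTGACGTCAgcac

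The libraries held 20545442 to 21746898 counts, and expression is given as CPM, the counts scaled to one common library size after TMM normalization (trimmed mean of M-values). Rnf20 itself held 107, 107 and 106 CPM in WT replicates 1 to 3 and 18.7, 18.5 and 16.4 CPM in knockout replicates 1 to 3, and each library thus matched its label. Knockout replicate 3 stood apart: the chi-square statistic of its counts per gene was 92.4 and 101 against the other knockout libraries, and 6.04 to 8.92 between any other libraries of one genotype. Knockout replicates 1 and 3 had 0 counts of the Y-linked gene Ddx3y, and the other 4 libraries had 1990 to 2686. Genotype was thus partly confounded with Y-linked expression, and the main test did not separate them. Of the MEF markers, 8 of 8 were detected, with a summed level of 26720 to 29120 CPM in WT and 17560 to 32780 in knockout libraries. Of these, named after their values were seen, Thy1 and Pdgfra fell in knockout cells, with log2 fold changes of -1.11 and -1.22 (adjusted p = 0.00251 and 0.0185, the latter 0.0590 to 0.0677 without any 1 WT library). The other 6 did not pass, among them Vim, whose knockout libraries were all above WT (0.29, adjusted p = 0.0577), and the list's median log2 fold change was -0.15. The 6 macrophage markers summed to 44.5 to 89.2 CPM in WT libraries and 48.1 to 242 in knockout libraries, the highest in knockout replicate 3. Epithelial markers summed to 54.6 to 58.4 and 21.8 to 77.0 CPM, in WT and knockout libraries, and the median log2 fold change of the 5 tested was -1.09. None of Epcam, Krt8, Krt18 and Cdh1 passed, with log2 fold changes of -1.09, -1.50, -1.30 and -0.28 (adjusted p = 0.0671, 0.189, 0.0646 and 0.740). The knockout libraries of Epcam, Krt8 and Krt18 were all below WT, and those of Cdh1 overlapped. Cldn4, too low to be tested, had means of 0.14 CPM in WT and 0.46 CPM in knockout libraries, with all knockout libraries above WT. Of the 5 tested, Krt19 alone passed and rose (1.14, adjusted p = 0.0274, and 0.0562 to 0.0972 without knockout replicate 2 or any 1 WT library). These epithelial markers too were named after their values were seen. Endothelial, muscle and pluripotent cell markers summed to at most 66.9, 12.6 and 2.33 CPM in any library. The part of these differences in the results below was not tested. In such bulk RNA fewer cells of a type and less RNA per cell cannot be told apart.

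In knockout cells, Ddit3, Ppp1r15a and Asns rose and Ddit4 fell. The other 6 members, Atf4 among them, did not pass the test. Genotypes were compared over all 13386 genes by edgeR's quasi-likelihood test, and a gene passed at a Benjamini-Hochberg adjusted p under 0.05. The 3 members that rose compare with 16.4% of all genes tested, the 1 that fell with 16.6%, and the 4 in either direction with 33.0%. Over all genes 2195 were higher and 2218 lower, and 1750 and 2684 when libraries were scaled by their totals only. The share of members that passed, 40% of 10, is thus near that of all genes. With the study's own thresholds (adjusted p under 0.01, absolute log2 fold change over 1 and mean FPKM over 1 in a genotype), 1 member passed, Ddit3, beside 3.59% of all genes. The knockout libraries lay wholly above the WT libraries for 3 members (26.6% of all genes) and wholly below for 2 (28.2% of all genes), so that 5 of 10 did not overlap (54.8% of all genes). The median log2 fold change of the members was 0.31, with 7 positive and 3 negative, and that of all genes tested was -0.00030. Their median absolute log2 fold change was also 0.31, against 0.32 for all genes.

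**Figure D1:**
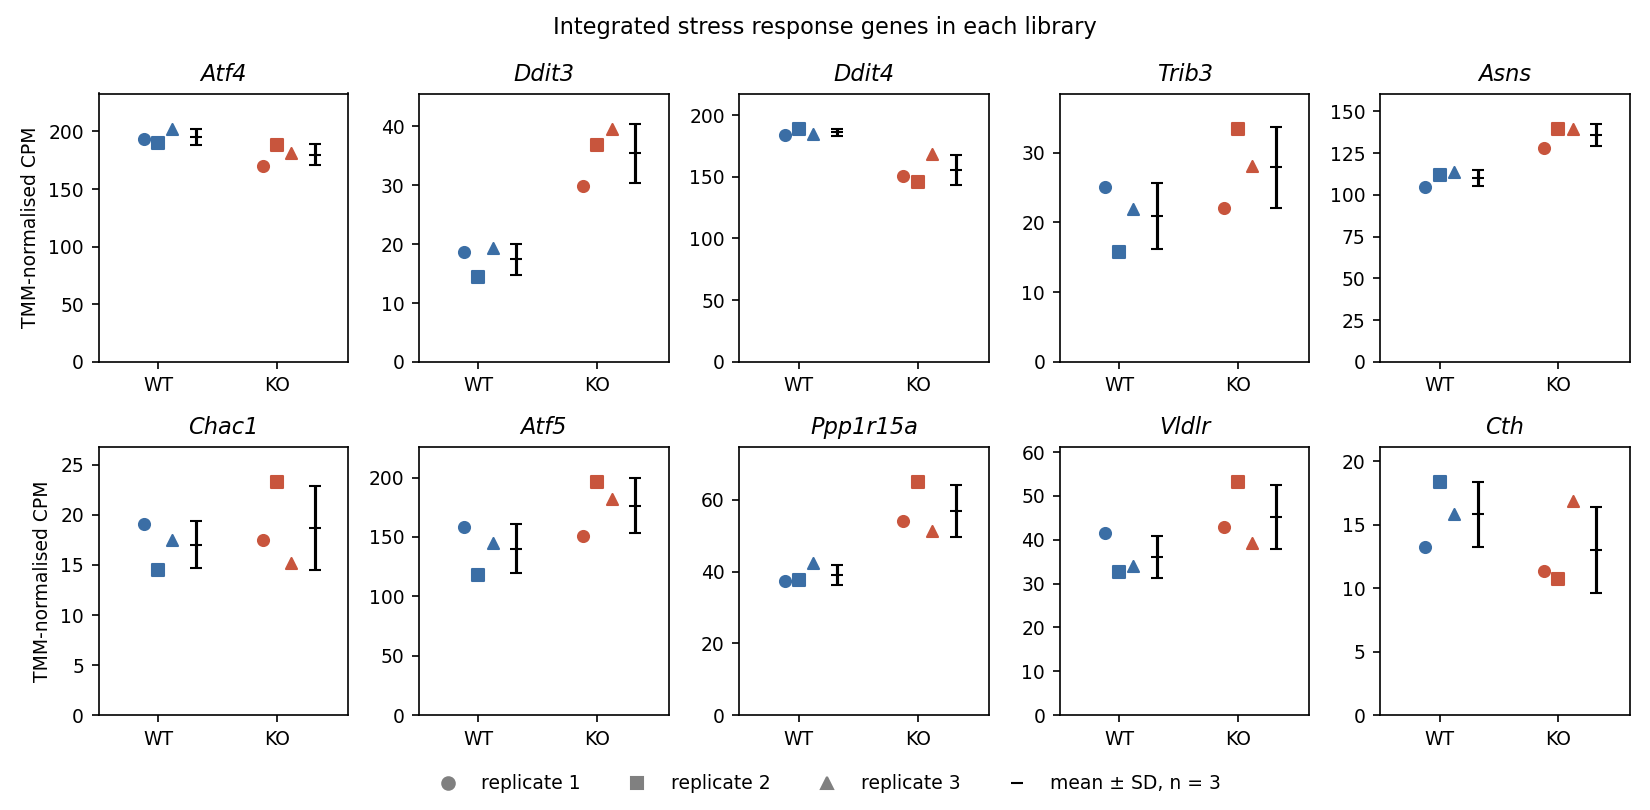
TMM-normalised CPM (vertical axes, from 0) of the 10 members in 3 WT libraries (blue) and 3 knockout libraries (red), with the replicate number as the marker shape and the mean ± SD (n = 3) beside the points. The knockout points of Ddit3, Ppp1r15a and Asns lie above all WT points, those of Ddit4 and Atf4 lie below, and the points of the other 5 genes overlap.

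Atf4, Ddit3 and Atf5 encode transcription factors of the basic leucine zipper class, and of the 3 transcripts that of Ddit3 alone passed the test. Atf4 (chromosome 15, 80255184 to 80257541, plus strand of GRCm38), the central factor, held 193, 190 and 202 CPM in WT replicates 1 to 3 and 170, 188 and 181 CPM in knockout replicates 1 to 3. All knockout values were below all WT values, but the nearest libraries, WT replicate 2 and knockout replicate 2, were almost level. The log2 fold change of Atf4 was -0.12 (standard error 0.0702, 95% interval -0.28 to 0.050) with an adjusted p of 0.234, and a change of the mRNA was not detected.

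Ddit3 (chromosome 10, 127290774 to 127296288, plus strand) encodes CHOP, which ATF4 induces and which can lead to cell death. It held 18.6, 14.4 and 19.3 CPM in WT replicates 1 to 3 and 29.9, 36.9 and 39.6 CPM in knockout replicates 1 to 3. The lowest knockout library was thus well above the highest WT library. Its mean rose from 17.4 ± 2.66 to 35.4 ± 5.02 CPM (mean ± SD, n = 3 each), a fold change of 2.03 (log2 1.02, standard error 0.156, adjusted p = 0.00652). This was the largest absolute fold change of the 10 members. It lies close to the limit of the study's thresholds: the log2 fold change was 0.94 without knockout replicate 3 (adjusted p = 0.000282), 0.90 without WT replicate 2 (adjusted p = 0.0322) and 1.14 without knockout replicate 1 (adjusted p = 0.0111). With any 1 of the 6 libraries removed, Ddit3 kept an adjusted p under 0.05 but did not pass those thresholds.

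The annotation (GENCODE M21) places 68 exon bases of Mars, the methionyl-tRNA synthetase gene, on the opposite strand of Ddit3 exons. The libraries were stranded, but the strand setting of the counting is not given in the sources used here. Mars fell, from 114, 118 and 124 CPM in WT replicates 1 to 3 to 89.7, 95.8 and 77.2 CPM in knockout replicates 1 to 3 (log2 fold change -0.44, adjusted p = 0.0169, and 0.0532 to 0.0736 without any 1 WT library). A second annotated gene with the symbol Ddit3 shares 105 exon bases on the same strand, and how its reads were counted is not known.

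Atf5 (chromosome 7, 44812256 to 44816658, minus strand), a target of ATF4 and CHOP that is itself under translational control, held 158, 118 and 145 CPM in WT replicates 1 to 3 and 151, 197 and 182 CPM in knockout replicates 1 to 3. Its groups overlapped, since knockout replicate 1 was below WT replicate 1. For Atf5 the log2 difference was 0.33 (standard error 0.142, 95% interval -0.0042 to 0.67, adjusted p = 0.113), and it passed in 0 of 13 alternatives (adjusted p = 0.0613 to 0.295). Exons of Il4i1 and of Nup62 on the opposite strand share 82 bases each with Atf5.

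Among the members that restrain growth signalling or the response itself, Ppp1r15a rose, Ddit4 fell and Trib3 did not pass. Ppp1r15a (chromosome 7, 45522916 to 45526268, minus strand) encodes GADD34, which brings protein phosphatase 1 to eIF2 and so restores translation. It held 37.3, 37.7 and 42.4 CPM in WT replicates 1 to 3 and 54.2, 65.1 and 51.4 CPM in knockout replicates 1 to 3. Every knockout library was above every WT library, and the mean went from 39.1 ± 2.82 to 56.9 ± 7.19 CPM. That was a fold change of 1.45 (log2 0.54, standard error 0.111, adjusted p = 0.0144). The adjusted p was 0.0616 without WT replicate 1 and 0.0657 without WT replicate 2, with log2 fold changes of 0.50 and 0.51, and it was 0.000372 without knockout replicate 3, with 0.61.

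Ddit4 (chromosome 10, 59949669 to 59951834, minus strand) encodes REDD1, an inhibitor of the growth kinase complex mTORC1 that ATF4, hypoxia, glucocorticoids and p53 induce. It held 184, 189 and 185 CPM in WT replicates 1 to 3, the tightest WT values of the 10 members, and 151, 146 and 169 CPM in knockout replicates 1 to 3. All knockout libraries were below all WT libraries. Ddit4 fell to 83.4% of the WT mean (log2 fold change -0.26, standard error 0.0765, adjusted p = 0.0403). The fall was near the threshold. Leaving out WT replicate 1, 2 or 3 or knockout replicate 1 or 2 gave an adjusted p of 0.111, 0.125, 0.114, 0.114 and 0.125, and the fit without knockout replicate 3 gave 0.000598.

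Trib3 (chromosome 2, 152337422 to 152344032, minus strand) encodes a pseudokinase that is induced by ATF4 and CHOP and restrains both. It held 25.1, 15.8 and 22.0 CPM in WT replicates 1 to 3 and 22.0, 33.5 and 28.2 CPM in knockout replicates 1 to 3. Knockout replicate 1 was level with WT replicate 3 and below WT replicate 1. The log2 fold change was 0.41 with a wide interval of -0.095 to 0.92 (standard error 0.213, adjusted p = 0.176), and the values without 1 library ran from 0.24 to 0.56.

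Of the members that act in amino acid and glutathione metabolism, only Asns passed the test. Asns (chromosome 6, 7675169 to 7693254, minus strand) encodes asparagine synthetase, and its match to the composite element, shown above, precedes the RefSeq start. It held 104, 112 and 114 CPM in WT replicates 1 to 3 and 128, 140 and 140 CPM in knockout replicates 1 to 3. The groups were separate and each was tight. Asns rose by a fold of 1.23 (log2 0.30, standard error 0.0718, adjusted p = 0.0214). The call was lost without WT replicate 1, 2 or 3 (adjusted p = 0.0928, 0.0744 and 0.0705) and without knockout replicate 2 (adjusted p = 0.0644), while the log2 fold change stayed between 0.27 and 0.35 with any 1 library removed.

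Chac1 (chromosome 2, 119351229 to 119354381, plus strand) encodes an enzyme that cleaves glutathione, and its match lies before both annotated starts. It held 19.1, 14.5 and 17.5 CPM in WT replicates 1 to 3 and 17.5, 23.3 and 15.2 CPM in knockout replicates 1 to 3. The values were mixed between genotypes, with only knockout replicate 2 above all WT libraries. The log2 fold change of 0.13 (standard error 0.185, 95% interval -0.31 to 0.57, adjusted p = 0.603) turned to -0.055 when knockout replicate 2 was removed.

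Cth (chromosome 3, 157894248 to 157925077, minus strand) encodes cystathionine gamma-lyase, which makes cysteine from cystathionine. It held 13.3, 18.4 and 15.8 CPM in WT replicates 1 to 3 and 11.4, 10.7 and 16.9 CPM in knockout replicates 1 to 3. Knockout replicates 1 and 2 were below every WT library and knockout replicate 3 was among them. For Cth the log2 difference was -0.28 (standard error 0.209, adjusted p = 0.324), and without knockout replicate 3 it was -0.52 with an adjusted p of 0.0123. In that fit 48.1% of all genes passed, against 33.0% with all libraries. Cth passed in no other alternative tried.

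Vldlr (chromosome 19, 27216484 to 27254231, plus strand) encodes a receptor for lipoproteins that ATF4 can induce under ER stress. It held 41.6, 32.7 and 34.1 CPM in WT replicates 1 to 3 and 42.9, 53.2 and 39.2 CPM in knockout replicates 1 to 3. Only knockout replicate 3 lay within the WT range, since WT replicate 1 was above it. For Vldlr the log2 difference was 0.32 (standard error 0.146, adjusted p = 0.134), and here too, of the alternatives tried, the test passed only without knockout replicate 3, with 0.41 and an adjusted p of 0.0138.

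**Figure D2:**
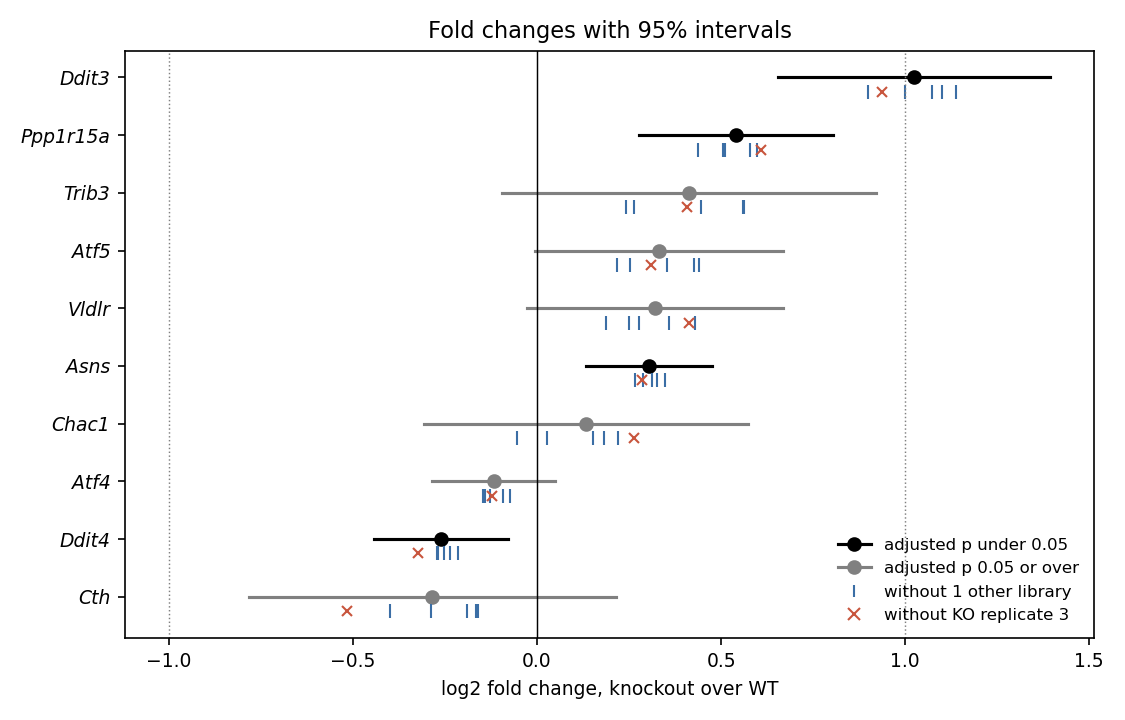
Log2 fold changes of the 10 members, knockout over WT, with 95% intervals (black where the adjusted p was under 0.05, grey elsewhere). Marks under each interval give the value with 1 library left out, a red cross for knockout replicate 3, and dotted lines stand at 1 and -1. Ddit3 reaches 1.02, Ppp1r15a 0.54 and Asns 0.30, and Ddit4 lies at -0.26.

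The members differed in how much they varied within a genotype. The coefficient of variation of the CPM ran from 1.42% for Ddit4 to 22.5% for Trib3 in WT libraries and from 4.82% for Asns to 26.0% for Cth in knockout libraries. In WT replicate 2, 6 of 10 members had their lowest WT value, and these were Atf4, Ddit3, Trib3, Chac1, Atf5 and Vldlr. Trib3, Ddit3, Atf5 and Chac1 differed there from the WT mean by -0.37, -0.26, -0.24 and -0.22 on the log2 scale, while Cth and Ddit4 had their highest WT values. In the knockout, replicate 2 held the highest value of 6 members (Atf4, Trib3, Chac1, Atf5, Ppp1r15a and Vldlr) and the lowest of Ddit4 and Cth. The median of the 10 members, as a log2 difference from their WT means, was 0.10, 0.47 and 0.23 in knockout replicates 1 to 3. Knockout replicate 2 is the knockout library with Ddx3y counts, and replicate 3 is the one that stands apart over all genes. These are values of single libraries, and no test was made of the order.

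**Figure D3:**
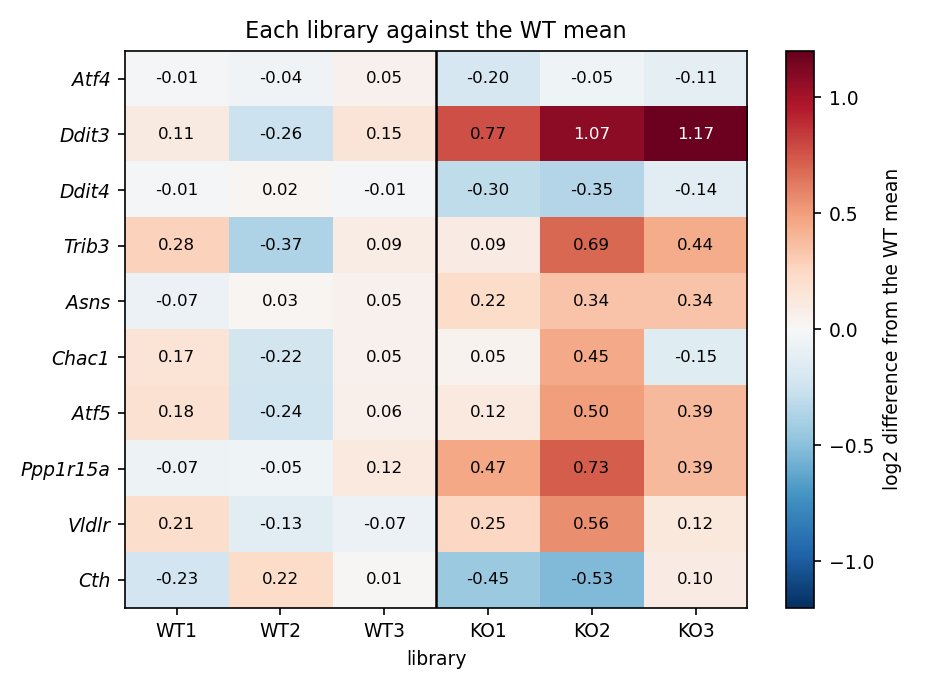
Log2 difference of each member's CPM from its WT mean (colour scale and printed values) in the 6 libraries, WT on the left of the line and knockout on the right. Ddit3 has the strongest colours, from 0.77 to 1.17 in the knockout libraries, and Trib3, Chac1 and Atf5 are negative in WT replicate 2 and highest in knockout replicate 2.

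Levels of different members were compared per length, as TPM, a unit that corrects for depth and gene length, computed from the counts and the deposited gene lengths. In WT cells the order was Atf4 (299.6 ± 9.81 TPM, mean ± SD, n = 3), Ddit4 (281 ± 3.37), Atf5 (204 ± 31.8), Asns (132 ± 4.34), Ddit3 (51.9 ± 8.12), Ppp1r15a (36.9 ± 2.43), Chac1 (27.5 ± 4.03), Trib3 (27.4 ± 6.40), Cth (23.0 ± 3.51) and Vldlr (11.4 ± 1.64). Neighbours in this order had separate libraries except Chac1, Trib3 and Cth, whose values overlapped in turn. Atf4 was above 96.7% of the genes tested and Vldlr above 35.3%. In knockout cells Atf4 (273 ± 17.1 TPM), Atf5 (254 ± 32.1) and Ddit4 (231 ± 7.80) no longer had separate libraries between neighbours, and Atf5 stood before Ddit4. Ddit3, at 104 ± 10.7 TPM, remained between Asns (161 ± 6.96 TPM) and Ppp1r15a (53.2 ± 8.43 TPM).

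The other genes of the pathway are counted below by list, beside the 16.4% of all genes tested that were higher and the 16.6% that were lower. At an unadjusted p under 0.05, 6100 of the 13386 genes passed in either direction. With DESeq2, limma, the replicate block and library totals only, 33.7%, 28.8%, 21.5% and 33.1% of all genes passed. The share was 14.3%, 11.9% and 10.3% without WT replicates 1 to 3. Without knockout replicates 1 to 3 it was 27.7%, 24% and 48.1%. With the term for Y-linked transcripts, which rests on knockout replicate 2 against WT, 1 gene of the transcription factor list was higher and 0 genes of the other lists passed in either direction. The first list, of genes that lead to ATF4, held the 4 eIF2 kinases, the subunits of eIF2 and of its exchange factor eIF2B, and related factors. Of its 16 genes, 5 were higher, 2 were lower and 9 did not pass, with a median log2 fold change of 0.15. Among the kinases, Eif2ak4, which encodes the amino acid sensor GCN2, fell from 48.1, 50.7 and 48.5 CPM in WT replicates 1 to 3 to 36.0, 37.3 and 39.6 CPM in knockout replicates 1 to 3 (log2 fold change -0.38, adjusted p = 0.0114). Impact, an inhibitor of GCN2, rose from 83.5, 88.0 and 77.0 to 114, 118 and 158 CPM (log2 fold change 0.65, adjusted p = 0.0156). Eif2s3x, a gamma subunit of eIF2 on the X chromosome, passed with a log2 fold change of 0.68 (adjusted p = 0.0433), but not with library totals only (0.62, adjusted p = 0.0590), with limma (0.59, adjusted p = 0.0629) or with the Y-linked term (0.12, adjusted p = 0.534). It held 505 and 503 CPM in knockout replicates 1 and 3, the libraries with 0 counts of Ddx3y, and 294 in knockout replicate 2, beside 258 to 279 in WT libraries.

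For the other kinases the test did not pass. Eif2ak3, the ER stress sensor PERK, held 51.5, 51.0 and 52.1 CPM in WT replicates 1 to 3 and 64.3, 69.1 and 40.8 CPM in knockout replicates 1 to 3, and its log2 fold change was 0.17 (adjusted p = 0.505) with all libraries and 0.37 (adjusted p = 0.000776) without knockout replicate 3. Eif2ak2, the RNA sensor PKR, was above WT in every knockout library, with 132 CPM in knockout replicate 3 against 75.2 and 76.8 in replicates 1 and 2 (log2 fold change 0.65, adjusted p = 0.0613). Eif2ak2 passed with DESeq2 (adjusted p = 0.0170), when knockout replicate 3 was removed (log2 fold change 0.33, adjusted p = 0.00104) and when knockout replicate 1 was removed (0.79, adjusted p = 0.0444). Eif2ak1, the haem-regulated kinase, had a log2 fold change of 0.046 (adjusted p = 0.627), which was -0.015 when libraries were scaled by their totals only. Eif2a, which encodes an initiation factor separate from eIF2, fell with a log2 fold change of -0.29 (adjusted p = 0.0288). The remaining 3 genes that passed, named after their values were seen, were Eif2s1, the alpha subunit that the kinases phosphorylate, and the eIF2B subunits Eif2b2 and Eif2b3, which rose with 0.32, 0.37 and 0.46 on the log2 scale (adjusted p = 0.0124, 0.0151 and 0.0208). Each call of this list was lost without at least 1 WT library: Eif2ak4 without WT replicate 2 or 3 (adjusted p = 0.0540 and 0.0505), Eif2s1 without 1 or 3 (0.0637 and 0.0648), Eif2b2 without 2 or 3 (0.0670 and 0.0637), and Impact, Eif2b3, Eif2s3x and Eif2a without any (0.0542 to 0.132). Eif2s3x also lost its call without knockout replicate 1 (0.105) and Eif2a without knockout replicate 2 (0.0886). The list had 1 higher and 1 lower gene without WT replicate 1, 1 and 0 without WT replicate 2, 0 and 0 without WT replicate 3, and 8 and 2 without knockout replicate 3.

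Transcription factors that pair with ATF4 or respond to the same stress included the largest changes on these lists. Of 9 genes tested, 3 were higher and 1 lower, with a median log2 fold change of 0.35, and 2 passed the study's thresholds. Cebpd, a C/EBP factor, rose with a log2 fold change of 2.76 (adjusted p = 0.0130). It held 4.47, 3.66 and 5.36 CPM in WT replicates 1 to 3 and 19.0, 14.8 and 57.9 CPM in knockout replicates 1 to 3, the last library far above the others. Nupr1, a stress-induced chromatin protein and ATF4 target, rose with 1.57 on the log2 scale (adjusted p = 0.0120). It held 97.3, 111 and 218 CPM in knockout replicates 1 to 3 against 43.7 to 51.9 in WT, and with knockout replicate 3 removed Cebpd and Nupr1 had log2 fold changes of 1.91 and 1.13. Both lost the call without any 1 of the WT libraries, with adjusted p-values of 0.0530 to 0.0624. Cebpa, which drives differentiation of fat and myeloid cells, fell from 25.5, 21.3 and 24.0 to 8.74, 7.36 and 4.19 CPM (log2 fold change -1.80, adjusted p = 0.00561). Atf3, named after its values were seen, is a factor induced by ATF4 and by p53. It rose from 5.09, 6.03 and 5.74 to 13.9, 14.8 and 16.8 CPM with tight groups (log2 fold change 1.43, standard error 0.133, adjusted p = 0.00251). Without any 1 WT library the list had 1 higher and 1 lower gene.

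ATF4 is known to induce genes for serine, proline and one-carbon synthesis together with Asns, and none on this list rose with Asns. The list also held Pck2, Gpt2 and Bcat1, which are not enzymes of these pathways. Its proline genes Aldh18a1 and Pycr1 did not pass by edgeR's test (log2 fold changes -0.42 and -0.43, adjusted p = 0.0852 and 0.0630). Of 12 genes, 0 were higher and 5 lower by edgeR's test, 0 and 7 at an unadjusted p under 0.05, 0 and 6 with DESeq2 or library totals only, 0 and 5 with limma, 0 and 4 with the replicate block and 0 and 0 with the Y-linked term, and the median log2 fold change was -0.42. The largest fall was that of Pck2, the mitochondrial PEP carboxykinase, from 118, 113 and 129 CPM to 64.3, 77.6 and 64.3 CPM (log2 fold change -0.80, standard error 0.102, adjusted p = 0.00431). Mthfd1l, an enzyme of mitochondrial folate metabolism, fell with -0.64 on the log2 scale (adjusted p = 0.0193). The other 3, named after their values were seen, were Shmt2, Gpt2 and Phgdh, with log2 fold changes of -0.55, -0.41 and -0.40 (adjusted p = 0.00972, 0.0231 and 0.0364). Mthfd2, another mitochondrial folate enzyme that ATF4 induces and also named after its values were seen, held 51.2, 45.4 and 53.3 CPM in WT replicates 1 to 3 and 47.4, 56.1 and 45.3 CPM in knockout replicates 1 to 3 and had no stable direction (log2 fold change -0.012, 0.026 with limma and -0.10 to 0.051 without 1 library, adjusted p = 0.941). Without WT replicate 1, 2 or 3 the number that fell was 2, 2 and 1, and without knockout replicate 1 it was 3. Pck2 kept an adjusted p under 0.05 with any 1 library removed, Shmt2 lost its call without WT replicate 3 (0.0508), and Mthfd1l, Gpt2 and Phgdh lost theirs without any 1 WT library (0.0597 to 0.125), the latter pair also without knockout replicate 1 (0.0602 and 0.0753).

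Amino acid transporters bring in what the synthetases load onto tRNA. Of 11 transporter and sensing genes tested, 2 were higher and 1 lower, with a median of 0.078. Sesn2, a leucine sensor that inhibits mTORC1 and is a target of ATF4 and p53, rose from 112, 106 and 122 to 164, 182 and 159 CPM (log2 fold change 0.57, adjusted p = 0.00684). The neutral amino acid transporters Slc1a4 and Slc1a5 went opposite ways, with log2 fold changes of 0.52 and -0.67 (adjusted p = 0.0226 and 0.0220). Sesn2 kept its call with any 1 library removed, while Slc1a4 lost it without WT replicate 2, WT replicate 3 or knockout replicate 2 (adjusted p = 0.0907, 0.0926 and 0.0547) and Slc1a5 without WT replicate 1, 2 or 3 (0.0640, 0.0785 and 0.0817). Among 12 aminoacyl-tRNA synthetases and the tRNA exporter Xpot, 2 were higher, Wars with 0.35 and Xpot with 0.25 on the log2 scale (adjusted p = 0.0126 and 0.0381), and 1 was lower, Mars, described above. Wars lost its call without WT replicate 1 or 2 (adjusted p = 0.0564 and 0.0605) and Xpot without any 1 WT library or knockout replicate 2 (0.106 to 0.131). Xpot also lost its call with library totals only, no filter, the replicate block or limma (adjusted p = 0.0727, 0.0572, 0.0840 and 0.119). Without knockout replicate 3 the counts of this list were 7 higher and 1 lower, and without WT replicate 1 or 2 they were 0 and 0.

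Of 9 tested genes for secreted factors, cysteine metabolism and cell death, 3 rose and 1 fell, and the median log2 fold change was -0.028. Gdf15, a secreted stress factor under ATF4, CHOP and p53, rose from 4.66, 5.36 and 5.74 to 11.1, 12.6 and 13.4 CPM (log2 fold change 1.23, standard error 0.143, adjusted p = 0.00358). Tnfrsf10b, the death receptor that CHOP and p53 induce, rose with 0.90 (adjusted p = 0.0110), and Bbc3, which encodes the p53 target PUMA and was named after its values were seen, with 0.60 (adjusted p = 0.00739). Bcl2l11, encoding the cell death protein BIM, fell with -0.44 on the log2 scale (adjusted p = 0.0269). Without WT replicate 2 or 3 the call of Tnfrsf10b was lost (adjusted p = 0.0517 and 0.0577), that of Bcl2l11 was lost without any library but knockout replicate 3 (0.0514 to 0.0909), and Gdf15 and Bbc3 passed without each library in turn.

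The other arms of the ER stress response, through IRE1 and ATF6, share Ddit3 and other targets with ATF4. Of 21 genes tested, 7 were higher and 0 lower by edgeR's test, 10 and 0 at an unadjusted p under 0.05 and also with DESeq2 and with limma, 6 and 0 with library totals only or the replicate block and 0 and 0 with the Y-linked term, and the median log2 fold change was 0.27. Ero1l, an oxidase of disulfide bond formation that CHOP and hypoxia induce, rose from 89.9, 82.9 and 80.1 to 174, 151 and 267 CPM (log2 fold change 1.23, adjusted p = 0.00853). Canx, the lectin chaperone calnexin, rose from 665, 662 and 656 to 1037, 1058 and 974 CPM (log2 fold change 0.63, adjusted p = 0.00349). Dnajb11 and Sel1l, named after their values were seen, are a cofactor of the chaperone BiP and a part of ER-associated degradation, and they rose with 0.61 and 0.41 on the log2 scale (adjusted p = 0.00374 and 0.00960, the latter 0.0511 and 0.0541 without WT replicate 2 or 3). Hspa5, which encodes BiP itself and was also named after its values were seen, did not pass, with 869, 855 and 923 CPM in WT replicates 1 to 3 and 1238, 1268 and 694 CPM in knockout replicates 1 to 3 (adjusted p = 0.369). Knockout replicate 3 was below all WT libraries and the others were above, and with that replicate removed the log2 fold change was 0.51 (adjusted p = 5.96e-05). Dnajb9, Dnajc3 and Calr also rose, with 0.48, 0.39 and 0.28 (adjusted p = 0.0122, 0.0193 and 0.0317). Among the 14 genes that did not pass were those of the arms themselves, Ern1, Xbp1 and Atf6. Their log2 fold changes were 0.16, -0.081 and 0.13 (adjusted p = 0.222, 0.511 and 0.193), with all knockout libraries above WT for Ern1 and Atf6. Without knockout replicate 3 the list had 15 higher and 0 lower genes, in a fit where 48.1% of all genes passed in either direction. Without WT replicate 2 or 3 it had 3 and 0, where 11.9% and 10.3% of all genes passed.

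**Figure D4:**
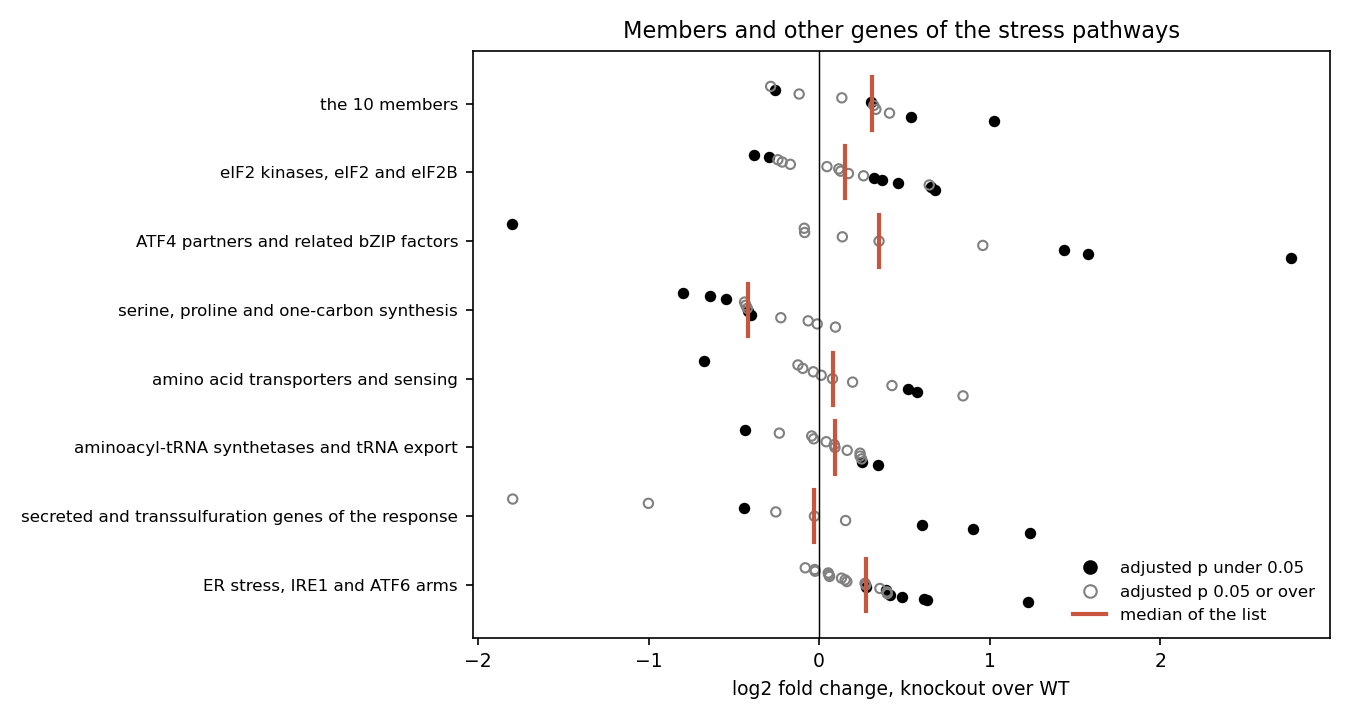
Log2 fold changes, knockout over WT, of the members and of 7 lists of other genes of the stress pathways (filled points, adjusted p under 0.05; open points, 0.05 or over; red line, median of the list). The synthesis list, with Pck2, Gpt2 and Bcat1, has a median of -0.42 with 5 filled points all below 0. The ER list has 7 filled points all above 0.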

How the data were processed

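RNA-seq of 3 WT and 3 Rnf20 knockout samples was analysed, grouped by their titles. Per the labels, the authors aligned reads to GRCm38/mm10 with HISAT2 2.1.0, and the authors deposited raw counts per gene without normalization. The authors also deposited FPKM values from Cufflinks 2.1.1 for 12633 genes. The counting program and its strand setting are not given in the sources used here. The second table repeats the counts and holds the authors' own fold changes and FDR, which were not used. Gene lengths came with the counts.

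Counts of all 16982 genes were analysed with edgeR 4.0.16 in R 4.3.3 (TMM, filterByExpr at its defaults, quasi-likelihood test of genotype without covariates, Benjamini-Hochberg adjustment over 13386 genes). Standard errors were taken from each log2 fold change and its F statistic. Alternatives were RLE factors, library totals only, no filter, DESeq2 1.42.0, a replicate block, limma 3.58.1 on log2(FPKM + 1), an adjusted p under 0.01, each library left out and, chosen after seeing the data, a term for Y-linked transcripts. Differences from WT means in single libraries used log2(CPM + 0.5). Positions are from GENCODE M21 and promoters from RefSeq, both on GRCm38. No other transcript matched a member over 200 bases at 95% identity (BLAST 2.17.0).

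By rule the named genes are the 10 members, Rnf20, the eIF2 kinases, and from each list the 2 genes with the largest rise and the 2 with the largest fall that passed. A further 15 were named after their values were seen and put through the alternatives. The markers Vim, Epcam, Krt8, Krt18, Cdh1 and Cldn4 were also named after their values were seen. So were Aldh18a1, Pycr1, Dnajb9, Dnajc3, Calr, Ern1, Xbp1 and Atf6. For the genes in these last sentences the alternatives are not given. The members and lists were chosen with earlier results of these data known. Genes on the pathway lists without a value here were tested and counted with their list, except Batf3, Slc7a5, Cdsn and Edem1, which were not tested. The test was run on simulated counts of 13256 genes. Of 197 genes given an absolute log2 fold change of 1, 62.9% passed in the right direction, and 11 unchanged genes passed. Far fewer genes were changed than passed in the data. Each gene had the same dispersion in all simulated libraries, and no library stood apart as knockout replicate 3 did. The share that passed therefore does not give the power of the test in these data.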

Additional observations from a re-analysis of the deposited data

How the results depend on the processing

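The counts of members that passed were 3 higher, 1 lower and 1 past the study's thresholds. RLE factors, no filter on low counts and DESeq2 gave the same counts. With library totals only, 0 members passed the study's thresholds. With the replicate number as a block, 0 members were lower and 0 passed the study's thresholds; limma on log2(FPKM + 1) gave 0 and 0 as well. In each of these fits 3 were higher. Ddit4 had an adjusted p of 0.0842 with the block. An adjusted p under 0.01 left 1 higher and 0 lower. With the term for Y-linked transcripts, which leaves the genotype contrast to knockout replicate 2 against WT, 0 members were higher, 0 lower and 0 past the study's thresholds, and 109 of all genes passed. There Ddit3 had a log2 fold change of 1.08 (adjusted p = 0.0741).

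When 1 library at a time was removed, the number of members that were higher ran from 1 to 4, the number that were lower from 0 to 2, and 0 passed the study's thresholds. The largest numbers were those without knockout replicate 3, where 48.1% of all genes passed, against 10.3% without WT replicate 3. Over 13 alternatives each, the 10 log2 fold changes gave 130 values, of which 110 kept direction and side of the threshold, 17 lost the call, 2 gained it and 1 changed sign (Chac1, whose values without 1 library ran from -0.055 to 0.26). Only members that had passed could lose a call, and the losses were 8 for Ddit4, 5 for Asns, 3 for Ppp1r15a and 1 for Ddit3. Of 507 values for the other 39 named genes put through the alternatives, 381 kept direction and side of the threshold and 114 lost the call. With the replicate block Eif2s3x, Eif2a, Eif2b2, Slc1a4, Xpot, Bcl2l11, Phgdh and Krt19 lost it (adjusted p = 0.0501 to 0.0902). Eif2ak1 changed sign (-0.015) with library totals only, and Mthfd2 with limma (0.026), with the Y-linked term (0.17) and without 1 library (-0.10 to 0.051). The adjusted p of Ddit3 ranged from 3.85e-07 with DESeq2 to 0.0741.

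Same-numbered samples of the genotypes did not deviate together (correlations of -0.045, 0.042 and 0.021 for replicates 1 to 3, across genes), and WT replicates 1 and 2 correlated more with another number, so the replicate block pairs samples by number only; among all genes it left 2875 calls of 4413. A floor of 3 counts is 0.142 to 0.143 CPM, below every member's value.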
